A study of Homo sapiens with 9 samples.

Results

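The lysosome breaks down macromolecules, and autophagy delivers cytoplasmic cargo to it. Expression was followed for 47 genes of this system out of 19918 gene symbols counted by RNA sequencing. They were listed by symbol as lysosomal, vacuolar ATPase (V-ATPase) and autophagy genes. The list was chosen with earlier results of these data known. Of these 47 genes, 46 passed the filter on low counts and were tested among 12810 genes in all. *NEU1*, a lysosomal sialidase, was listed at 0 counts in 9 of 9 libraries and could not be tested.

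The cells were VCaP, an established prostate cancer line derived from a bone metastasis, so 1 cell line stands behind every value. They were harvested 72 h after reverse transfection with 100 pmol of siRNA. The si025 and si033 groups each received an siRNA designed against exon 1 of *IGF1R-AS1*. The control cells were given a control siRNA. *IGF1R-AS1* is a long non-coding RNA that runs opposite to *IGF1R*. Each group held 3 libraries, and all groups shared the cell line and the transfection. Both comparisons against control use the same 3 control libraries, so their results are not independent of each other. Knockdown of *IGF1R-AS1* itself was not analysed here. The study describes its knockdown libraries as biological replicates, the labels name no separate cultures, and p-values measure the spread between these libraries.

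Lysosomal enzymes are made in the endoplasmic reticulum, sorted through the Golgi and activated in the acid lumen that the V-ATPase maintains. The transcription factors TFEB, TFE3 and MITF bind E-box sequences upstream of many of these genes, and mTORC1, recruited to the lysosome by Rag GTPases, holds the factors in the cytoplasm when nutrients are plentiful. During autophagy, Atg8 family proteins are conjugated to lipid on a growing membrane that closes around cargo and fuses with the lysosome. MYC is a transcription factor that also binds E-boxes, and the list was set beside the fall in *MYC* for that reason.

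The siRNA strands listed by the study are shown first, because the control strand is the baseline of every comparison against control. Capitals mark the 7 bases that would pair with bases 2 to 8 of the complementary strand, and the same 7 letters in a 3′ UTR would be a seed match for that strand. The 19 bases of the siRNA 1 and siRNA 2 cores matched the minus strand of chromosome 15 in hg38, within an intron of *IGF1R*, a gene on the plus strand. The sources used here do not say which of these siRNAs is si025 and which is si033.
control siRNA: uagcgacuaaaCACAUCAa
siRNA 1 (chr15:98843733-98843751): agaaagcacugAAGACCUauu
siRNA 2 (chr15:98843694-98843712): ccguauugcucAGUGGAAauu

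With si025, 25 of the 46 tested genes rose and 4 fell, at an adjusted p under 0.05 by edgeR's quasi-likelihood test. In all, 29 of 46 were called (63.0%), against 61.7% of the 12810 genes tested. The balance of directions was 54.3% higher and 8.7% lower among the lysosome and autophagy genes, against 32.9% higher and 28.8% lower over all genes tested. The median log2 fold change was 0.14 over the 46 genes and 0.02 over all genes tested. Most changes were small: 9 genes were called with at least a 1.5-fold change (19.6%, against 19.3% of all genes tested). Of these, 2 of the 46, *TFEB* and *WIPI1*, reached 2-fold, against 899 of the 12810 genes tested. Levels are given as CPM, normalized counts per 1000000 counts of a library, and on this scale fewer cells of a type and less RNA per cell cannot be told apart.

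With si033, 18 of the 46 genes rose and 10 fell, and 28 were called (60.9%, against 54.8% of all genes tested). The share called higher was 39.1% against 26.9% of all genes tested, and the share called lower was 21.7% against 27.8%. The median log2 fold change was 0.04 over the 46 genes and 0.00 over all genes tested. Over the 46 genes it was 0.03 with gene length offsets and with the DESeq2 Wald test. It was 0.07 without si033 replicate 1 or si033 replicate 3, and 0.07 without control replicate 3. Without control replicate 2 it was 0.08, and with library totals alone it was higher still, at 0.09. Over all genes tested, the median was 0.00 to 0.01 with 1 library left out, and it too was higher, at 0.06, with library totals alone. At least a 1.5-fold change was called for 5 genes (10.9%, against 14.7% of all genes tested). None of the 46 reached 2-fold, against 659 of the 12810 genes tested. Over all genes tested the split with si033 was 3449 higher and 3566 lower, and scaling by library totals alone turned it to 4211 higher and 2888 lower.

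**Figure D1:**
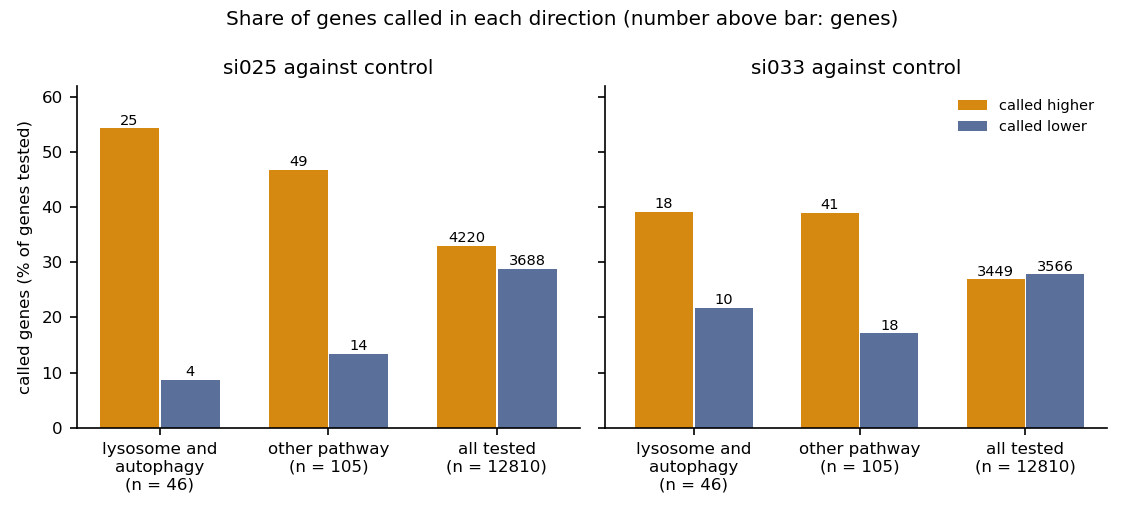
Share of genes called higher (orange) or lower (blue), in percent of genes tested, for the lysosome and autophagy genes, for 105 other genes of the same pathways and for all 12810 genes tested, with si025 (left) and si033 (right). The number of genes stands above each bar, and in both panels the 2 pathway groups have more orange than blue while the bars over all genes are closer to even.

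*MYC*, the proto-oncogene transcription factor that serves as the comparator, fell with both siRNAs. Its level was 440, 457 and 435 CPM in the control libraries, 262, 267 and 245 with si025, and 320, 307 and 303 with si033. All libraries of each siRNA group lay below all control libraries. On the log2 scale the change was -0.78 ± 0.04 (SE) with si025 (adjusted p = 4.69e-13) and -0.52 ± 0.04 with si033 (adjusted p = 7.16e-10).

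Set against this fall, 14 of the 46 genes were called higher with both siRNAs (30.4%, against 15.1% of all genes tested). They were *RRAGD*, *CTSB*, *GLB1*, *PSAP*, *LIPA*, *LAMP2*, *NPC2*, *ATP6V1A*, *ATP6V1D*, *MAP1LC3B*, *BECN1*, *UVRAG*, *WIPI1* and *ATG9A*, and at least 1 of every functional group except the conjugation enzymes was among them. Without control replicate 1 the count was 9 (19.6%, against 13.7% of all genes tested), and under the other 16 alternatives it lay between 11 and 17. Some of these calls were small and unsteady: that of *GLB1* with si033 was lost under 6 of 17 alternatives (adjusted p of up to 0.0883), and that of *NPC2* under 5 with si025 (up to 0.120) and 2 with si033 (up to 0.0794). A single gene, *ATP6V1B2*, fell with both siRNAs as *MYC* did (2.17%, against 14.6% of all genes tested). *TFEB*, *MITF*, *SCARB2* and *SQSTM1* rose with si025 and fell with si033 (8.7%, against 5.39% of all genes tested), and *GABARAPL2* did the reverse (2.17%, against 3.01%). The count of 4 was 2 without si033 replicate 3 and 2 without control replicate 3. A call with 1 siRNA only was made for 9 genes with si025 (19.6%, against 23.7% of all genes tested) and 8 with si033 (17.4%, against 16.7%), and 9 genes were called with neither (19.6%, against 21.6% of all genes tested).

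The libraries themselves gave much the same picture. All 3 si025 libraries lay above all 3 control libraries for 24 of the 46 genes and below them for 6, where 35.0% and 30.7% of all genes tested did so. For si033 the counts were 18 above and 11 below, where 29.3% and 30.2% of all genes tested did so.

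**Figure D2:**
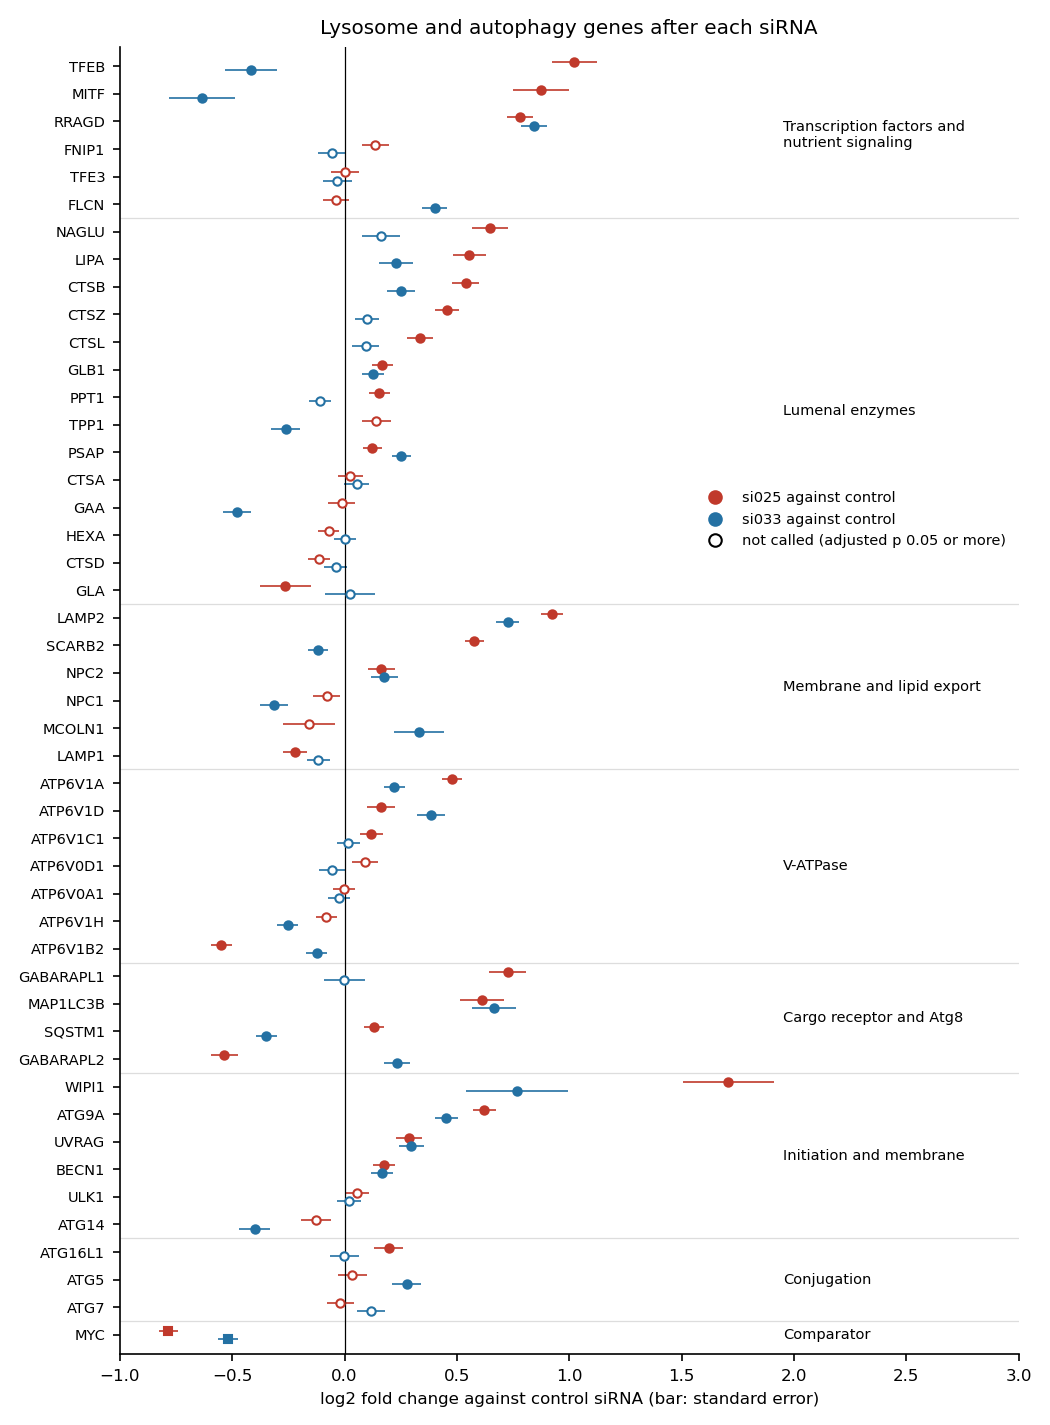
Log2 fold change against control for each of the 46 tested genes, grouped by function, and for *MYC*, with si025 in red and si033 in blue. Bars are standard errors and open symbols are genes not called, and the widest separations between the red and blue symbols are at *TFEB*, *MITF* and *WIPI1*.

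Among the transcription factors, *TFEB* and *MITF* moved in opposite directions with the 2 siRNAs, and *TFE3* was called with neither. *TFEB*, the factor best known as a master regulator of lysosomal genes, was at 10.2, 8.99 and 8.03 CPM in control, 17.6, 18.8 and 17.7 with si025, and 6.34, 7.74 and 6.21 with si033. Every si025 library was above and every si033 library was below the control range. This was a log2 fold change of 1.02 ± 0.10 with si025 (adjusted p = 6.38e-09) and -0.42 ± 0.12 with si033 (adjusted p = 0.00435), where the latter lost its call without si033 replicate 3 (adjusted p = 0.0512).

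*MITF*, a related factor best known from melanocytes, was at 6.63, 6.67 and 6.49 CPM in control, 12.1, 10.9 and 13.2 with si025, and 3.21, 5.34 and 4.18 with si033. The 3 groups did not overlap, with si025 highest and si033 lowest. Its log2 fold change was 0.87 ± 0.13 with si025 (adjusted p = 2.33e-06) and -0.63 ± 0.15 with si033 (adjusted p = 0.000903). *TFE3*, the third of these factors, was at 26.6, 29.6 and 28.4 CPM in control, 27.3, 29.0 and 28.6 with si025, and 27.8, 27.0 and 28.1 with si033. The groups overlapped, and neither difference passed the test (adjusted p = 0.971 with si025 and 0.698 with si033). Per kilobase of exon, *TFE3* was the most abundant of the 3 in control, at 8.18 CPM per kb, against 2.52 for *TFEB* and 0.452 for *MITF*. Raw counts were from 77 to 400 per library for *TFEB* and from 39 to 299 for *MITF*.

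*RRAGD* encodes a Rag GTPase of the nutrient sensor that recruits mTORC1 and TFEB to the lysosome, and it rose by a similar amount with both siRNAs. It was at 30.2, 30.6 and 32.3 CPM in control, 54.6, 54.0 and 52.2 with si025, and 53.1, 58.5 and 56.0 with si033. All 6 knockdown libraries lay above all control libraries. On the log2 scale the change was 0.78 ± 0.06 with si025 (adjusted p = 5.96e-11) and 0.84 ± 0.06 with si033 (adjusted p = 2.36e-11). *FLCN*, whose product activates GTP hydrolysis by RagC and RagD, rose with si033 only (log2 fold change 0.40 ± 0.06, adjusted p = 2.62e-06). Its partner gene *FNIP1* was called with neither siRNA.

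The E-box core CACGTG was searched in promoters from RefSeq on GRCh38.p14, each from 250 bases before to 50 after a start site. A promoter was found for 36 of the 47 genes, and 9 of these held the core (25%), against 7.26% of all 35116 promoters and 12.4% of the 9948 tested genes that matched one. Since CACGTG reads the same on both strands, 1 search covers both. The longer palindrome TCACGTGA, which contains the core, was present in 5 of the 36 (13.9%), against 0.98% of all promoters and 2.17% of tested genes. One window of 30 bases is shown for each of these 5 genes, with the palindrome in capitals, since these are the promoters where the letters bound by the TFEB family are plainest.
*MCOLN1* (chr19:7522571-7522600, plus strand): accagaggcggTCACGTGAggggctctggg
*LAMP1* (chr13:113297199-113297228, plus strand): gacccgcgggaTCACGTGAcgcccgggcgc
*GAA* (chr17:80101493-80101522, plus strand): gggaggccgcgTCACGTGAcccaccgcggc
*CTSA* (chr20:45891298-45891327, plus strand): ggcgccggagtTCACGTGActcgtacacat
*ATP6V0D1* (chr16:67481199-67481228, minus strand): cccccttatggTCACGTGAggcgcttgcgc

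The core starts 41, 28, 76, 25 and 59 bases before the start site in these windows, in the order shown. *MCOLN1*, *LAMP1* and *GAA* hold the palindrome at a second place as well. These 5 genes did not share a direction. *MCOLN1* was called higher and *GAA* lower with si033 only, *LAMP1* was called lower with si025 only, and *CTSA* and *ATP6V0D1* were called with neither. Of the 14 genes higher with both siRNAs, 8 had a promoter in the table and 0 of these held the core. The 8 tested genes with the core had a median log2 fold change of -0.06 with si025 and -0.06 with si033, against 0.16 and 0.10 for the 27 without it. A match describes these letters in this window and nothing about binding.

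Among the 14 tested lumenal enzymes and their activators, 8 rose and 1 fell with si025, and 4 rose and 2 fell with si033. For this and the later groups, the shares over all genes tested were 32.9% higher and 28.8% lower with si025, and 26.9% and 27.8% with si033. *NAGLU*, which removes N-acetylglucosamine from heparan sulfate, was at 13.0, 13.4 and 11.9 CPM in control, 20.2, 20.1 and 19.2 with si025, and 12.9, 14.9 and 14.4 with si033. Only the si025 libraries stood clear of control (log2 fold change 0.65 ± 0.08, adjusted p = 2.37e-07), and the si033 difference did not pass the test (adjusted p = 0.105).

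*LIPA*, the lysosomal acid lipase, was at 26.5, 31.3 and 33.5 CPM in control, 45.0, 44.4 and 46.8 with si025, and 32.1, 38.2 and 37.7 with si033. The si025 libraries were all above control and the si033 libraries overlapped it. This was a log2 fold change of 0.56 ± 0.07 with si025 (adjusted p = 7.46e-07) and 0.23 ± 0.08 with si033 (adjusted p = 0.014). The si033 call was lost without si033 replicate 2, si033 replicate 3 or control replicate 1, with an adjusted p of up to 0.0937.

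*CTSB*, the cysteine protease cathepsin B, was at 29.7, 29.3 and 26.4 CPM in control, 40.3, 41.0 and 41.3 with si025, and 32.1, 33.8 and 34.3 with si033. The groups did not overlap, with si025 highest. Its log2 fold change was 0.54 ± 0.06 with si025 (adjusted p = 6.38e-08) and 0.25 ± 0.06 with si033 (adjusted p = 0.00168). The other enzymes that rose with both siRNAs were *GLB1*, the lysosomal beta-galactosidase, and *PSAP*, the precursor of the saposins that activate sphingolipid breakdown, both by less than 0.26 on the log2 scale. The loss of the *GLB1* call with si033 is given above. The *PSAP* call with si025 was lost without control replicate 1 (adjusted p = 0.105). *GAA*, the acid alpha-glucosidase that degrades glycogen, fell with si033 (log2 fold change -0.48 ± 0.06, adjusted p = 5.85e-07), as did *TPP1*, a tripeptidyl peptidase (-0.26 ± 0.07, adjusted p = 0.00183).

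Of the 6 membrane and lipid export genes, 3 rose and 1 fell with si025, and 3 rose and 2 fell with si033. *LAMP2*, a major glycoprotein of the lysosomal membrane, rose with both siRNAs. It was at 73.6, 72.9 and 77.8 CPM in control, 146, 135 and 146 with si025, and 121, 126 and 125 with si033. The 3 groups did not overlap. On the log2 scale the change was 0.92 ± 0.05 with si025 (adjusted p = 2.55e-13) and 0.73 ± 0.05 with si033 (adjusted p = 2.50e-11). Its paralog *LAMP1* went the other way with si025, at 55.0, 51.5 and 53.5 CPM in control and 44.6, 46.8 and 45.6 with si025 (log2 fold change -0.22 ± 0.05, adjusted p = 0.000894). With si033, *LAMP1* was at 48.6, 50.1 and 48.9 CPM, also all below control, but the difference did not pass the test (-0.12 ± 0.05, adjusted p = 0.0663).

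*SCARB2* encodes LIMP-2, the receptor that carries glucocerebrosidase to the lysosome. It was at 724, 707 and 736 CPM in control, 1098, 1035 and 1101 with si025, and 635, 701 and 661 with si033. The si025 libraries were all higher and the si033 libraries all lower than control. This was a log2 fold change of 0.58 ± 0.04 with si025 (adjusted p = 5.10e-11) and -0.12 ± 0.04 with si033 (adjusted p = 0.0225). The si033 call was lost under 6 of 17 alternatives, with upper quartile scaling, with library totals alone, and when si033 replicate 1 or 3 or control replicate 1 or 3 was left out, with an adjusted p of up to 0.176.

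*MCOLN1*, the calcium channel TRPML1 of the lysosomal membrane, was at 8.99, 8.77 and 10.4 CPM in control, 8.02, 9.73 and 7.74 with si025, and 13.3, 11.6 and 11.4 with si033. Only the si033 libraries stood clear of control, on the high side. Its log2 fold change was 0.33 ± 0.11 with si033 (adjusted p = 0.015), a call lost without si033 replicate 1 or control replicate 2 (adjusted p of up to 0.0572), and with si025 the test was not passed (adjusted p = 0.237). Of the cholesterol export pair, *NPC2* rose with both siRNAs by less than 0.18 on the log2 scale, calls that did not hold under every alternative as given above, and *NPC1* fell with si033 (-0.31 ± 0.06, adjusted p = 0.000173).

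**Figure D3:**
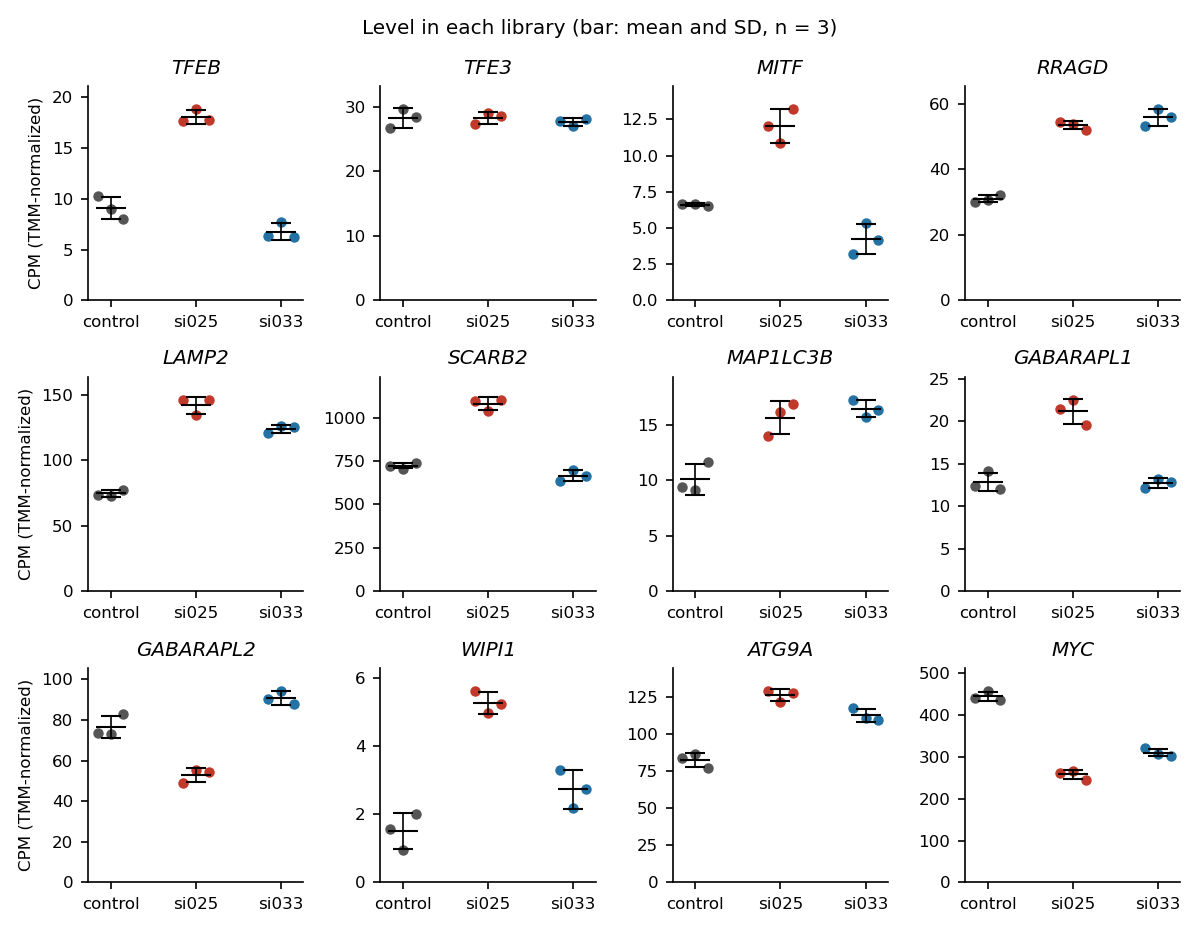
Level in each library, in TMM-normalized CPM from 0, of 11 lysosome and autophagy genes and of *MYC*, in control (gray), si025 (red) and si033 (blue), with the mean and SD of 3 libraries. *RRAGD*, *LAMP2*, *MAP1LC3B*, *WIPI1* and *ATG9A* were above control in every knockdown library, *TFEB*, *MITF* and *SCARB2* were above it with si025 and below it with si033, and *MYC* was below it in every knockdown library.

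The 7 V-ATPase genes were split. With si025, 3 rose and 1 fell, and with si033, 2 rose and 2 fell, although the products work as subunits of a single proton pump. *ATP6V1A*, the catalytic A subunit, was at 148, 151 and 150 CPM in control, 213, 203 and 210 with si025, and 164, 183 and 176 with si033. All knockdown libraries were above control, and the log2 fold change was 0.48 ± 0.05 with si025 (adjusted p = 5.14e-09) and 0.22 ± 0.05 with si033 (adjusted p = 0.000324).

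*ATP6V1B2*, the B subunit that alternates with A in the same ring, was at 139, 150 and 146 CPM in control, 99.9, 98.2 and 99.2 with si025, and 130, 138 and 131 with si033. The si025 libraries were the lowest, and those of si033 lay just below control. On the log2 scale the change was -0.55 ± 0.05 with si025 (adjusted p = 6.23e-10) and -0.12 ± 0.05 with si033 (adjusted p = 0.027). The si033 call was lost under 6 of 17 alternatives, with upper quartile scaling, with library totals alone, and when si033 replicate 1 or 3 or control replicate 2 or 3 was left out (adjusted p of up to 0.188). *ATP6V1D*, a subunit of the central stalk, was at 38.8, 38.7 and 42.7 CPM in control, 42.6, 46.1 and 46.4 with si025, and 48.7, 55.4 and 53.6 with si033. The si033 libraries were the highest, and the si025 libraries touched the control range. This was a log2 fold change of 0.16 ± 0.06 with si025 (adjusted p = 0.0268) and 0.38 ± 0.06 with si033 (adjusted p = 1.55e-05). The si025 call was lost with the DESeq2 Wald test and when si025 replicate 2 or 3 or control replicate 1 or 2 was left out (adjusted p of up to 0.110). *ATP6V1H*, a regulatory subunit, fell with si033 only (-0.25 ± 0.05, adjusted p = 0.000108), and *ATP6V0A1* and *ATP6V0D1*, the listed genes of the membrane sector, were called with neither siRNA.

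The 4 genes of cargo binding and the Atg8 family were all called with si025, 3 higher and 1 lower, and 3 of them with si033, 2 higher and 1 lower. *MAP1LC3B*, encoding LC3B, the Atg8 protein most used to follow autophagosomes, was at 9.43, 9.13 and 11.7 CPM in control, 13.9, 16.1 and 16.8 with si025, and 17.2, 15.7 and 16.4 with si033. All 6 knockdown libraries were above control. The log2 fold change was 0.61 ± 0.10 with si025 (adjusted p = 1.09e-05) and 0.66 ± 0.10 with si033 (adjusted p = 5.10e-06).

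*GABARAPL1*, a second Atg8 gene, was at 12.4, 14.1 and 12.1 CPM in control, 21.5, 22.5 and 19.6 with si025, and 12.1, 13.2 and 12.9 with si033. Its si025 libraries were all higher and its si033 libraries overlapped control. On the log2 scale the change was 0.73 ± 0.08 with si025 (adjusted p = 7.64e-08), and the si033 difference did not pass the test (adjusted p = 0.996). *GABARAPL2* was at 73.6, 73.0 and 82.8 CPM in control, 49.0, 55.3 and 54.2 with si025, and 90.3, 94.3 and 87.8 with si033. The groups did not overlap, and the order was the reverse of that of *TFEB*. This was a log2 fold change of -0.54 ± 0.06 with si025 (adjusted p = 5.60e-08) and 0.24 ± 0.06 with si033 (adjusted p = 0.00143). *MAP1LC3B* and *GABARAPL1* have near-identical copies, *MAP1LC3B2* and *GABARAPL3*, so their counts are less certain than those of single-copy genes.

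*SQSTM1*, encoding the cargo receptor p62, was at 148, 144 and 140 CPM in control, 154, 160 and 159 with si025, and 117, 108 and 114 with si033. The si033 libraries were all below control and the si025 libraries all above. The log2 fold change was -0.35 ± 0.05 with si033 (adjusted p = 1.08e-06) and 0.13 ± 0.04 with si025 (adjusted p = 0.0139). The si025 call was lost with gene length offsets and without control replicate 3 (adjusted p of up to 0.0913).

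Of the 6 genes of initiation and membrane supply, 4 rose with each siRNA, and *ATG14* fell with si033. *WIPI1* encodes a protein that reads phosphatidylinositol 3-phosphate on the forming autophagosome. It was at 1.57, 0.942 and 2.01 CPM in control, 5.61, 4.96 and 5.22 with si025, and 3.30, 2.17 and 2.73 with si033. The groups did not overlap, on raw counts of 13 to 118 per library. Its log2 fold change, the largest of the 46 genes with si025, was 1.71 ± 0.20 (adjusted p = 1.51e-07), or 3.27-fold, and with si033 it was 0.77 ± 0.23 (adjusted p = 0.00638).

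*ATG9A*, whose product is a lipid scramblase on vesicles that seed the autophagosome, was at 83.6, 86.3 and 77.2 CPM in control, 129, 122 and 128 with si025, and 117, 111 and 109 with si033. All knockdown libraries were above control, and the log2 fold change was 0.62 ± 0.05 with si025 (adjusted p = 3.90e-10) and 0.45 ± 0.05 with si033 (adjusted p = 1.25e-07). The genes of the class III phosphatidylinositol 3-kinase complexes divided. *BECN1* rose by 0.18 ± 0.05 with si025 (adjusted p = 0.00353) and by 0.17 ± 0.05 with si033 (adjusted p = 0.00657), and *UVRAG* rose by 0.29 ± 0.06 (adjusted p = 0.000145) and 0.30 ± 0.06 (adjusted p = 0.000132). *ATG14*, which directs the complex to autophagosome formation where UVRAG acts in endosome traffic, was at 21.2, 21.2 and 22.2 CPM in control, 20.3, 19.3 and 20.0 with si025, and 16.0, 16.2 and 16.8 with si033. The si033 libraries stood apart on the low side. On the log2 scale the change was -0.40 ± 0.07 with si033 (adjusted p = 3.62e-05), and with si025 the test was not passed (adjusted p = 0.0978).

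Of the 3 conjugation genes, 1 rose with each siRNA and none fell. *ATG5* was at 55.3, 61.6 and 59.6 CPM in control, 57.1, 58.3 and 65.3 with si025, and 71.1, 78.4 and 66.4 with si033, and only the si033 libraries stood clear of control (log2 fold change 0.28 ± 0.07, adjusted p = 0.00102). With si025 the *ATG5* difference did not pass the test (adjusted p = 0.659). *ATG16L1*, the partner that places the ATG12-ATG5 conjugate on the membrane, was at 34.0, 29.6 and 34.9 CPM in control, 39.5, 36.7 and 37.6 with si025, and 32.1, 32.8 and 33.7 with si033. The si025 libraries were the highest, and those of si033 overlapped control. The log2 fold change with si025 was 0.20 ± 0.06 (adjusted p = 0.0106), a call lost without control replicate 2 (adjusted p = 0.0948), and with si033 the adjusted p was 0.989. *ATG7*, the activating enzyme of both conjugation systems, was called with neither siRNA.

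Compared directly, si025 and si033 differed for 31 of the 46 genes (67.4%, against 60.9% of all genes tested). Of these, 23 were higher with si025 (50%, against 31.2%) and 8 were lower (17.4%, against 29.7%). The largest differences were in *MITF* (log2 fold change of si025 over si033 1.51 ± 0.13, adjusted p = 1.32e-09) and *TFEB* (1.44 ± 0.10, adjusted p = 3.53e-11). They were the only 2 of the 46 that reached 2-fold, against 986 of the 12810 genes tested. *SCARB2* (0.70), *GABARAPL1* (0.73) and *WIPI1* (0.94) were also higher with si025, and *GABARAPL2* was lower (-0.77). For *RRAGD* and *MAP1LC3B* the difference between the siRNAs was -0.06 ± 0.05 (adjusted p = 0.320) and -0.05 ± 0.09 (adjusted p = 0.630), which did not pass the test. Of the 14 genes higher with both, *WIPI1*, *LIPA* (0.33), *CTSB* (0.29), *ATP6V1A* (0.26), *LAMP2* (0.20) and *ATG9A* (0.17) rose further with si025, while *ATP6V1D* (-0.22) and *PSAP* (-0.13) rose further with si033.

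**Figure D4:**
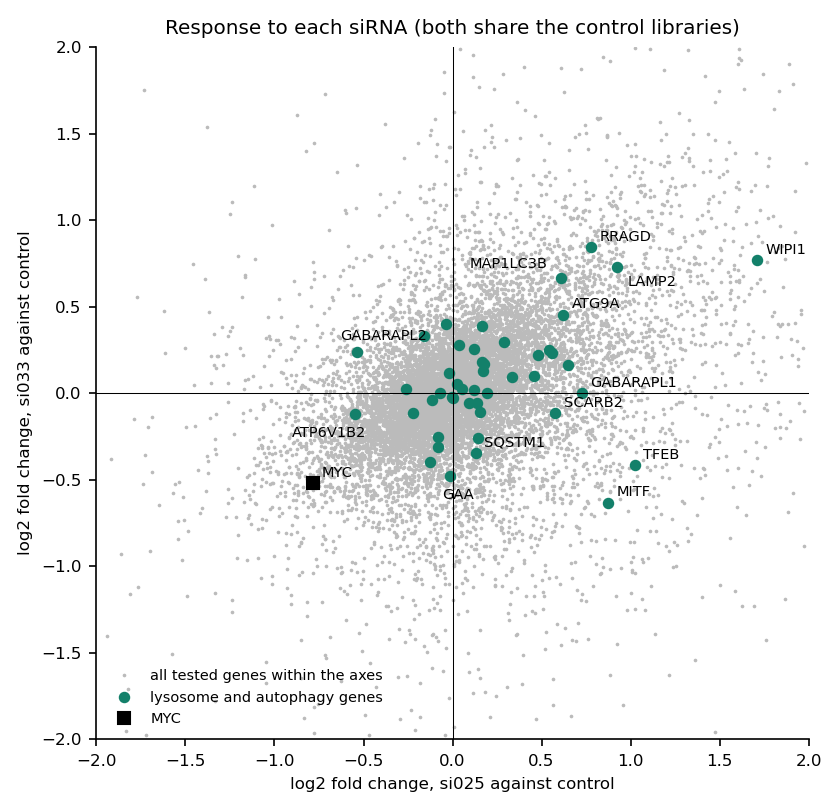
Log2 fold change with si025 (x axis) against log2 fold change with si033 (y axis) for all tested genes within the axes (gray), the 46 lysosome and autophagy genes (green) and *MYC* (black square). Both axes use the same control libraries. *WIPI1*, *LAMP2*, *RRAGD*, *MAP1LC3B* and *ATG9A* lie at upper right, *TFEB* and *MITF* at lower right, and *MYC* at lower left with *ATP6V1B2*.

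In order of control level, the most abundant genes per kilobase of exon were *SCARB2* at 151 CPM per kb, *PSAP* at 118, *GABARAPL2* at 76.3 and *CTSD*, the aspartic protease cathepsin D, at 73.0. The least abundant were *UVRAG* at 2.85, *TFEB* at 2.52, *MITF* at 0.452 and *WIPI1* at 0.338. Of the neighbors in this order, *GABARAPL2* and *CTSD* overlapped in their control libraries, as did *UVRAG* with *TFEB* and *MITF* with *WIPI1*, whereas *SCARB2* and *PSAP* stood apart from each other and from the rest. Over the whole order, 28 of the 46 neighboring pairs overlapped. With si033, *PSAP* and *SCARB2* were within their spread of each other, at 141 and 140 CPM per kb. By mean level, *LAMP2* moved from rank 30 in control to 25 with si025 and 24 with si033.

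A further 114 genes of the same pathways were examined, of which 105 were tested. These too were chosen with earlier results of these data known. With si025, 49 rose (46.7%) and 14 fell (13.3%), against 32.9% and 28.8% of all genes tested. With si033, 41 rose (39.0%) and 18 fell (17.1%), against 26.9% and 27.8% of all genes tested. By group, 15 of 24 other lumenal enzymes rose (62.5%) and 3 fell (12.5%) with si025, and 13 rose (54.2%) and 1 fell (4.17%) with si033. Of 13 other V-ATPase genes, 8 rose (61.5%) and none fell with si025, and 5 rose (38.5%) and 3 fell (23.1%) with si033. Other autophagy genes gave 14 higher (38.9%) and 3 lower (8.33%) of 36 with si025, and 12 higher (33.3%) and 6 lower (16.7%) with si033. Other membrane genes gave 5 higher (38.5%) and 4 lower (30.8%) of 13 with si025, and 5 higher (38.5%) and 2 lower (15.4%) with si033. Nutrient signaling genes gave 7 higher (36.8%) and 4 lower (21.1%) of 19 with si025. They were even with si033, at 6 higher (31.6%) and 6 lower (31.6%).

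The genes named next are the called ones with the highest or lowest log2 fold change of the wider group in each comparison. *GABARAP*, the founding member of its Atg8 subfamily, was at 78.5, 79.3 and 83.6 CPM in control, 142, 158 and 148 with si025, and 156, 162 and 157 with si033. All knockdown libraries were far above control, with log2 fold changes of 0.89 ± 0.05 (adjusted p = 4.75e-13) and 0.97 ± 0.05 (adjusted p = 1.70e-13). *RRAGA*, a Rag GTPase that pairs with RagC or RagD, rose by 0.76 ± 0.06 with si025 (adjusted p = 7.42e-11) and by 1.05 ± 0.06 with si033 (adjusted p = 3.52e-13). *RRAGC*, the alternative to *RRAGD* in that pairing, was at 52.4, 49.7 and 53.2 CPM in control, 20.9, 23.4 and 21.4 with si025, and 67.8, 69.7 and 66.0 with si033. It was lower than control in every si025 library and higher in every si033 library, with log2 fold changes of -1.24 ± 0.06 (adjusted p = 6.65e-14) and 0.38 ± 0.05 (adjusted p = 2.73e-06).

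Other genes at the ends of the order with si025 were *LGMN*, the protease legumain (-1.12 ± 0.09, adjusted p = 3.77e-10), and *SORT1*, a sorting receptor for lysosomal proteins (-0.78 ± 0.05, adjusted p = 2.02e-11), both lower. On the high side were *OPTN*, an autophagy receptor (1.23 ± 0.08, adjusted p = 3.06e-12), *ATP6V1C2*, a V-ATPase subunit (1.20 ± 0.11, adjusted p = 1.39e-09), and *AGA*, which cleaves glycoasparagines (0.94 ± 0.19, adjusted p = 0.000169). With si033, *OPTN* (0.74 ± 0.08, adjusted p = 5.81e-08) and *ATP6V1C2* (0.83 ± 0.11, adjusted p = 1.22e-06) rose too, and *SORT1* fell by 0.19 ± 0.05 (adjusted p = 0.00366). *LGMN* did not pass the test with si033 (adjusted p = 0.322), nor did *AGA* (adjusted p = 0.0923).

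With si033, the lowest of the wider group were *ATG4C*, a protease that processes Atg8 proteins (-0.84 ± 0.10, adjusted p = 3.72e-07), *FNIP2*, a partner of FLCN (-0.73 ± 0.06, adjusted p = 8.12e-10), and *ATP6V1E2* (-0.55 ± 0.14, adjusted p = 0.00241). *LAMP3*, a LAMP family member, was at 0.611, 0.652 and 0.773 CPM in control and 2.31, 1.93 and 2.24 with si033, with a log2 fold change of 1.62 ± 0.27 (adjusted p = 1.86e-05). It lay near the filter on low counts in the control and si025 libraries. None of *ATG4C*, *FNIP2*, *ATP6V1E2* and *LAMP3* passed the test with si025, although *FNIP2* (adjusted p = 0.0712) passed it under 7 of 17 alternatives.

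The seed word of the control strand shown above, CACATCA, was present in the annotated 3′ UTR of 1412 of 12034 tested genes (11.7%). Among those genes, 49.4% were called higher with si025 and 42.7% with si033, against 31.2% and 25.0% of the genes without it. Of 45 lysosome and autophagy genes with an annotated 3′ UTR, 7 held the word: *ATP6V1A*, *ATP6V1C1*, *SQSTM1*, *UVRAG*, *WIPI1*, *ATG9A* and *ATG16L1*. All 7 were called higher with si025, although the call of *ATP6V1C1* was lost under 9 of 17 alternatives (adjusted p of up to 0.179), and 4 of the 7 with si033. Of the 38 without the word, 18 were called higher with si025 (47.4%) and 14 with si033 (36.8%). Of the wider group, 16 of 105 held the word. With si025, 7 of these 16 were called higher (43.8%) and 42 of the 89 without it (47.2%), and with si033, 9 (56.2%) and 32 (36.0%). The word of siRNA 1 was present in 1 of the 45 genes (*LAMP2*, 2.22%, against 11.4% of the 12034). That of siRNA 2 was present in 5 (*CTSB*, *TPP1*, *SCARB2*, *ATP6V1C1* and *ATG5*, 11.1%, against 16.0%). Over the 12034 genes, those with the siRNA 1 word were called higher in 33.0% with si025 and 29.0% with si033, against 33.4% and 26.8% without it. For the siRNA 2 word the shares were 35.7% and 27.8%, against 32.9% and 26.9%. Genes called lower were not counted by word, so these shares do not show whether genes matching a knockdown siRNA fell. The median log2 fold change of genes with the siRNA 1 word was -0.00417 with si025 and -0.00146 with si033, against 0.0226 and 0.0022 without it. For the siRNA 2 word the medians were 0.0353 and 0.0047, against 0.016 and 0.00172. The part of such matches in the results was not tested.

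Libraries held from 11649811 to 28492259 counts, with 14735 to 15474 genes detected, and the biological coefficient of variation was 4.13%. Defining markers of prostate luminal cells were present (11 of 11 tested), with a summed level of 8718 to 8978 CPM in control, 10490 to 10810 with si025 and 7487 to 7842 with si033, and the part of that difference in the results was not tested. Of 8 markers of macrophages, which are rich in lysosomes, 4 were at 0 in all libraries (*CSF1R*, *MARCO*, *C1QA* and *C1QB*) and the sum was at most 2.65 CPM. Fibroblast markers summed to 19.9 to 21.8 CPM in control, 39.4 to 46.6 with si025 and 11.9 to 14.9 with si033, with 3 of 7 tested, and most of this sum was *LUM* (means of 15.6, 37.1 and 8.39 CPM), whereas *ACTA2* was at 3.17, 3.04 and 2.95 CPM. Endothelial markers reached at most 2.34 CPM, with 1 of 5 tested. The zeros of *NEU1* were shared by much of its neighborhood. Of 140 symbols between 29000000 and 33000000 on chromosome 6, 6 were tested (4.29%), against 565 of 889 (63.6%) on the rest of that chromosome. These zeros therefore do not show that *NEU1* was silent in these cells, and their cause was not tested.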

How the data were processed

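RNA from 9 VCaP samples (3 groups of 3, assigned by sample title) was sequenced as stranded total RNA libraries. According to the methods of the study, the authors aligned trimmed read pairs to GRCh38 with HISAT2, and the submitters' processing notes give version 2.1.0. Per the file headers, the deposited values are raw counts of read pairs per gene symbol, made with featureCounts 1.5.2 over exons of a RefSeq annotation of hg38 on the sense strand, whereas the methods name GENCODE. Read pairs mapping to several places were left uncounted, which makes the counts of *MAP1LC3B* and *GABARAPL1* less certain. The labels and the methods also name different RNA extraction kits.

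From these counts, differential expression was tested with edgeR 4.0.16 (R 4.3.3): quasi-likelihood test, TMM normalization, default expression filter (12810 genes), all 9 libraries in 1 fit, Benjamini-Hochberg adjustment over all genes tested, threshold 0.05. Levels are TMM-normalized counts per 1000000 (CPM), divided by exonic length in kb wherever genes are compared with each other. Library totals of 11649811 to 28492259 limit the precision of the least abundant genes. The fit was tested on simulated data. The 47 genes and all other lists were chosen with earlier results of these data known. Named genes are the 4 regulators *TFEB*, *TFE3*, *MITF* and *RRAGD*, up to 3 called genes per functional group with the largest absolute change against control, and the 3 highest and 3 lowest called genes of the wider group in each comparison against control. Any other gene was named after its values were seen. Alternatives were DESeq2 1.42.0, other scalings, no filter, gene length offsets, a replicate block, fits on 2 groups and leaving out each library.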

Additional observations from a re-analysis of the deposited data

Results flagged for a closer look

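The lysosome and autophagy genes below were singled out because their changes against the shared control differed between the siRNAs, as tested by the direct comparison (edgeR's quasi-likelihood test, adjusted p under 0.05). Values are log2 fold changes of si025 over si033. The control libraries enter this comparison only through the filter on low counts, the scaling and the common estimate of spread.

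Among the regulators the difference was 1.44 for *TFEB*, 1.51 for *MITF* and 0.19 for *FNIP1*, all higher with si025, and -0.44 for *FLCN*, higher with si033. The *FNIP1* call was lost without si025 replicate 3 or si033 replicate 1 (adjusted p of up to 0.0755). Among the lumenal enzymes, those higher with si025 were *CTSB* (0.29), *CTSL* (0.24), *CTSZ* (0.35), *GAA* (0.47), *NAGLU* (0.48), *TPP1* (0.40), *PPT1* (0.26) and *LIPA* (0.33). *GLA* (-0.29) and *PSAP* (-0.13) were higher with si033, and the *GLA* call was lost under 6 of 17 alternatives (adjusted p of up to 0.136), among them without si025 replicate 2, si025 replicate 3, si033 replicate 1 or si033 replicate 3.

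Among the membrane genes the difference was 0.20 for *LAMP2*, 0.70 for *SCARB2*, 0.23 for *NPC1* and -0.49 for *MCOLN1*. In the V-ATPase it was 0.15 for *ATP6V0D1*, 0.26 for *ATP6V1A* and 0.17 for *ATP6V1H*, against -0.43 for *ATP6V1B2* and -0.22 for *ATP6V1D*. The *ATP6V0D1* call was lost under 4 of 17 alternatives, which were the DESeq2 Wald test and leaving out si025 replicate 2, si033 replicate 2 or si033 replicate 3 (adjusted p of up to 0.120).

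In autophagy the difference was 0.48 for *SQSTM1*, 0.73 for *GABARAPL1*, 0.27 for *ATG14*, 0.94 for *WIPI1*, 0.17 for *ATG9A* and 0.20 for *ATG16L1*. It was -0.77 for *GABARAPL2* and -0.24 for *ATG5*.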

How the results depend on the processing

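Each result was recomputed under 17 alternatives. The number of the 46 genes called ranged from 24 to 31 with si025 (20 to 28 higher, 3 to 5 lower), from 22 to 30 with si033 (15 to 22 higher, 7 to 12 lower) and from 29 to 32 between the siRNAs (22 to 23 higher, 7 to 9 lower), each within 1.5 times the reported count. Over all genes tested the counts were 7151 to 8224, 6151 to 7309 and 6997 to 8054. *MYC* stayed lower in every alternative, with log2 fold changes of -0.81 to -0.73 with si025 and -0.54 to -0.47 with si033. The count of genes higher with both siRNAs was 9 to 15 with 1 library left out and 11 to 17 otherwise. The count lower with both was 0 with upper quartile scaling and with library totals alone, 3 with gene length offsets, and 0 to 1 with 1 library left out. The count higher with si025 and lower with si033 was 2 to 6 with 1 library left out. The cause of these shifts was not tested.

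Of 123 gene results, 106 were called, and 18 of these lost their call under at least 1 alternative. Their log2 fold changes lay between -0.42 (*TFEB* with si033) and 0.33 (*MCOLN1* with si033), and most are given with their values in the report. The remaining calls with si025 that were lost belonged to *GLA* (10 alternatives) and *PPT1* (1, without control replicate 1, adjusted p = 0.0562). Libraries whose removal ended a call were si033 replicate 2 or 3 and control replicate 1 or 2 for *GLB1* with si033, si025 replicate 2 or 3 and control replicate 1 or 3 for *NPC2* with si025, and si033 replicate 3 or control replicate 3 for *NPC2* with si033. *ATP6V1C1* and *GLA* with si025 lost their calls without most single libraries (6 of 9 each, adjusted p of up to 0.179 and 0.188). *NAGLU* with si033 gained a call with library totals alone (adjusted p = 0.0328) and without si033 replicate 1 (0.0439), and *ATG14* with si025 with gene length offsets (0.0266). No result that was called under an alternative changed direction. Uncalled differences near 0 did. *TFE3* with si025 was -0.0118 with DESeq2 size factors, -0.0134 with gene length offsets, -0.0123 with only the 2 groups compared, -0.0146 with the DESeq2 Wald test, -0.000314 with no filter, and -0.0293 to 0.0309 with 1 library left out. *LAMP3* with si025 was -0.00403 with DESeq2 size factors, -0.0298 with gene length offsets, -0.0066 with only the 2 groups compared, and -0.261 to 0.282 with 1 library left out. With library totals alone, *TFE3* with si033 was 0.0238, *GABARAPL1* with si033 0.0548, *ATG16L1* with si033 0.0538 and *ATG4C* with si025 0.0171. With upper quartile scaling *GABARAPL1* with si033 was 0.0288 and *ATG16L1* with si033 was 0.0283. With 1 library left out, *TFE3* with si033 ranged from -0.0536 to 0.00651, *GABARAPL1* with si033 from -0.056 to 0.0726, *ATG16L1* with si033 from -0.0596 to 0.0631, *ATG5* with si025 from -0.0313 to 0.0676, *ATG4C* with si025 from -0.0818 to 0.024 and *MAP1LC3B* between the siRNAs from -0.112 to 0.00767.

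Deviations from the group means correlated between -0.0214 and 0.0729 for the 9 same-numbered pairs and between -0.120 and 0.106 for the 18 others. These weak correlations cannot tell whether replicate numbers pair the samples. Library totals rose with the replicate number in every group. From replicate 1 to 3 they went from 11649811 to 26760578 in control, 12662828 to 22436104 with si025 and 11963322 to 28492259 with si033. With the replicate number as a block, 31, 29 and 31 of the 46 genes were called (si025, si033 and between the siRNAs), and 8000, 7094 and 7843 of all genes tested. The count higher with si025 and lower with si033 was 6 under the block. *GABARAPL1* with si033 was 0.00483 under the block, and calls were gained for *FNIP1* (adjusted p = 0.0481) and *TPP1* (0.0479) with si025 and for *PPT1* with si033 (0.0446), and none of the 46 genes lost a call.

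The scalings moved the median log2 fold change of all genes by at most 0.054, with library totals alone and si033. Depth limits the least abundant genes, among them *WIPI1*, *AGA* and *LAMP3*.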
